A study of Arabis alpina with 2 samples.

Results

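The sites described here are 264 single-base changes of the kind that alkylating mutagens leave, G-to-A or C-to-T, which were listed in the progenitor pep1-1 of Arabis alpina but not in the mutant pool derived from it. They were chosen by their measured values in the progenitor and by their absence from the pool list: a G-to-A or C-to-T change in the progenitor's list of variants, a variant quality of at least 25, a coverage of at least 10 reads, and a position not listed in the pool with any base. The variant quality is a Phred-scaled confidence in the call, and the coverage is the number of reads over the site. The rule left 264 of the 14029 sites in the progenitor list, or 264 of the 9483 sites that passed both minimums. Among the 2967 progenitor G-to-A or C-to-T sites past both minimums they made up 8.90%, against 13.2% of sites of all types past both minimums that were not listed in the pool. These shares were fixed by the rule, and nothing is read from them.

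A pool of eop055BC1F2 plants and the progenitor pep1-1, both in the Pajares accession and sampled as flower buds at the beginning of reproduction in long days, gave 1 library of genomic DNA each. The eop055 line had been selfed for successive generations, backcrossed to the non-mutagenised pep1-1 and selfed once more, and plants with the mutant phenotype were chosen for the pool, so both libraries share the pep1-1 background. Median coverage was 106 reads over the 14923 sites of the pool list and 100 reads over the 14029 of the progenitor list. The labels do not state how many plants went into either library. With 1 library per group no difference below has a replicate check. Chromosome positions are those of the authors' assembly, with no build named in the labels or headers. Genes and sequences at these positions were not analysed here.

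In Arabis alpina, a perennial relative of Arabidopsis, PEP1 represses flowering until prolonged cold and is the orthologue of the Arabidopsis gene FLC. Alkylating mutagens such as EMS modify guanine, so that a mutated G is read as A, or as C-to-T when the modified guanine lay on the other strand. In a population made by backcrossing a mutant to its progenitor, some alleles come from the progenitor alone. Such an allele, if fixed in the progenitor, should still segregate except close to the selected mutation, where the mutant chromosome takes over. If it was not fixed there, it may be missing from the pool at any position, because the backcross may not have passed it on. Most of the sites described here were far from fixed in the progenitor library. A block missing from the pool was looked for as neighbouring sites of good quality and ordinary depth, with similar allele frequencies and no shared site between them.

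The 264 sites varied widely in depth, and most had an allele frequency below 0.5 and a quality below 100. Their allele frequency, meaning the fraction of a site's reads that carry the changed base, had a median of 0.375 (interquartile range 0.303 to 0.498) and ran from 0.167 to 1. Of them, 88 lay between 0.3 and 0.4 and 52 between 0.4 and 0.5, whereas 58 lay under 0.3 and 28 at 0.6 or more. Coverage had a median of 47 reads (24 to 99.2) and ran from 10 to 6503 reads. Variant quality had a median of 41.2 (32.5 to 57.5), and 88 sites stood between 25 and 35, just above the minimum. Coverage and quality helped to choose the sites, and all these values are given as a description.

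The edges of the rule were crowded. Without either minimum, 1063 G-to-A or C-to-T sites were listed in the progenitor alone, and 645 of these fell to the quality minimum only, 16 to the coverage minimum only and 138 to both. Just inside the quality minimum stood C23621713T on chromosome 1, with a quality of 25.48 and 7 of 33 reads. Just outside it stood C5997084T on chromosome 3, with a quality of 24.48 and 6 of 15 reads. At the coverage minimum G37359692A on chromosome 7, with 5 of 10 reads, was inside, and G11399993A on chromosome 5, with 3 of 8 reads, was outside. In these tokens the reference base comes first, then the position counted from 1 at the start of the sequence, then the base read in the library.

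Depth split the sites into 3 classes. Ordinary depth was taken as 0.5 to 1.5 times 69 reads, the median progenitor coverage of the 1401 shared sites that stood at an allele frequency of 0.9 or more in both libraries, which gave bounds of 34.5 and 103.5 reads. Of the 264 sites, 112 (42.4%, 95% Wilson interval 36.6 to 48.5%) lay below it, 90 (34.1%) within it and 62 (23.5%) above it. The mirror set, the 1390 pool-only G-to-A or C-to-T sites found by the same minimums, had 29 sites (2.09%) below ordinary depth, 1231 (88.6%) within it and 130 (9.35%) above it. Shared G-to-A or C-to-T sites of the progenitor had 3.37% below it and 56.3% above it. Low depth was not particular to these changes: of the 991 progenitor-only sites of other types 48.7% lay below ordinary depth, and of the 652 G-to-T and C-to-A sites among them 66.3%. Sites below ordinary depth had a median allele frequency of 0.348, against 0.377 within it and 0.423 above it.

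Quality set the progenitor-only sites apart from the pool-only ones within the same limits of depth and frequency as well, though the sites were not matched inside those limits. Among sites of ordinary depth and an allele frequency from 0.3 to 0.7 there were 67 progenitor-only sites with a median quality of 48.5 (38.5 to 91.5) and 934 pool-only sites with a median of 217 (138 to 217). A quality of 100 or more was reached by 15 of these 67 sites, or 22.4% (14.1 to 33.7%), and by 784 of the 934, or 83.9% (81.4 to 86.2%). The 375 shared G-to-A or C-to-T sites within these limits lay between, with a median quality of 119 and 59.7% (54.7 to 64.6%) at 100 or more. Those 67 sites were 25.4% of the progenitor-only sites, and 16.9% of all progenitor sites past both minimums met the same limits of depth and frequency. All these intervals cover counting error only, and the sites of 1 library are not replicates.

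**Figure D1:**
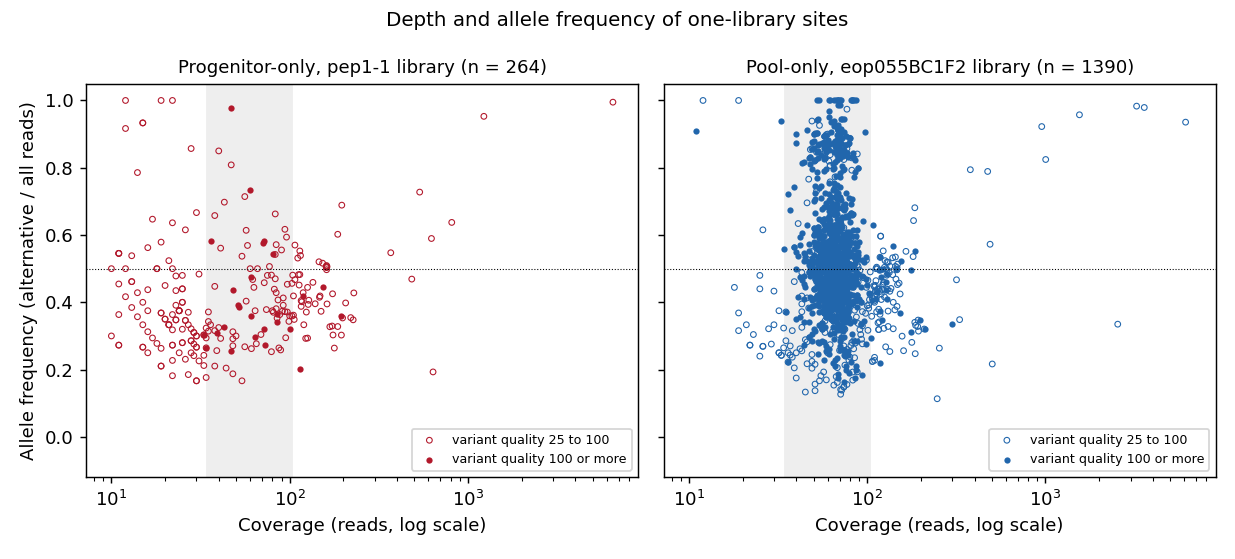
Allele frequency against coverage (reads, log axis) for the 264 progenitor-only sites of the pep1-1 library on the left and the 1390 pool-only sites of the eop055BC1F2 library on the right, 1 point per site, filled where the variant quality was 100 or more. The shaded band is ordinary depth, 34.5 to 103.5 reads, which held 90 of the progenitor-only and 1231 of the pool-only sites.

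Position divided the sites again, into tight clusters and isolated sites. Of the 264, 94 (35.6%, 30.1 to 41.6%) had another progenitor-only site of any type within 100 bases, 19 had one at up to 10 kb, and 151 (57.2%, 51.2 to 63.0%) had none within 10 kb. The clustered sites stood at a median of 0.44 in allele frequency with 84 reads, and the isolated sites at 0.346 with 31 reads. Of the isolated sites 83 lay below ordinary depth. Of the pool-only G-to-A or C-to-T sites, 8.20% had another pool-only site within 100 bases. Of the progenitor-only changes of other types, 10.9% of the 652 G-to-T and C-to-A sites and 57.8% of the 339 remaining sites were clustered in this way, so the value for the G-to-A or C-to-T sites lay between them.

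Isolated sites of high quality were the exception among the progenitor-only sites. A quality of 100 or more was reached by 26 of the 264 sites (9.85%), of which 21 had no other progenitor-only site within 10 kb. In this class of isolated progenitor-only sites, G-to-A or C-to-T made up 21 of 49 sites of any type, or 42.9% (30 to 56.7%). At qualities of 25 to 50 the share was 18.5% (101 of 547 isolated sites), and at 50 to 100 it was 15% (29 of 193). For isolated pool-only sites the same 3 classes held 17.6%, 38.1% and 97.0% G-to-A or C-to-T. Among progenitor-only sites of that quality with another within 100 bases the share was 2 of 29, or 6.9% (1.91 to 22%), and over all positions it was 26 of 85, or 30.6% (21.8 to 41%). Over all qualities and positions the share among progenitor-only sites was 21% (264 of 1255). Of all progenitor sites past both minimums, listed in the pool or not, 2967 of 9483 were G-to-A or C-to-T. The split by quality was chosen after the values were seen.

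The 21 isolated high-quality sites were 12 G-to-A and 9 C-to-T, on 6 chromosomes and 2 unplaced sequences, and 17 of them had ordinary depth. Their coverage had a median of 61 reads (interquartile range 47 to 72), near the 67 reads of the pool-only sites, and ran from 33 to 119 reads. Their allele frequency had a median of 0.361 and ran from 0.202 to 0.979. The 95% interval held 0.5, the frequency of a heterozygous site in a single plant, at 8 of them, lay wholly below it at 11 and above it at 2. None of the 26 high-quality sites lay on chromosomes 2 or 6, although those chromosomes held 42 and 22 of the 264 sites.

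The best-supported sites of ordinary depth and intermediate frequency were spread over 5 chromosomes. G15962527A on chromosome 3 was carried by 44 of 81 reads, an allele frequency of 0.543 (0.435 to 0.647), with a quality of 217. C21177306T on the same chromosome had 29 of 61 reads, at 0.475 (0.355 to 0.598). On chromosome 4, C12485669T had 21 of 48 reads, at 0.438 (0.307 to 0.577), and C19007496T had 21 of 36 reads, at 0.583 (0.422 to 0.729). The intervals of these 4 sites all held 0.5. On chromosome 8, G8435912A had 20 of 51 reads, at 0.392 (0.270 to 0.529), and C2899298T had 14 of 43 reads, at 0.326 (0.205 to 0.475). C19469233T on chromosome 7 had 20 of 52 reads, at 0.385 (0.265 to 0.520), and C27806T on the unplaced sequence scaffold_232 had 42 of 72 reads, at 0.583 (0.468 to 0.690). Most of these sites stood alone: the nearest site listed in the pool was 13774 bases away for G15962527A, 64362 bases for C21177306T and 45833 bases for G8435912A, but 835 bases for C12485669T and 147 bases for C2899298T.

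On chromosome 5, 4 of the high-quality sites lay in 1 stretch. G1002109A had 12 of 39 reads (0.308, 0.186 to 0.464). G1114280A had 20 of 73 reads (0.274, 0.185 to 0.386). G1266593A had 23 of 72 reads (0.319, 0.223 to 0.434), and G1745831A had 31 of 85 reads (0.365, 0.270 to 0.471). All 4 were G-to-A, all had ordinary depth, and their intervals overlapped each other and lay below 0.5. The stretch from 1002109 to 1745831 spans 744 kb and was singled out after its values were seen.

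The same stretch held few other sites in either library. In the pool it held 4 sites past both minimums, with 45 to 57 reads each, and in the progenitor it held 10. In the pool none of them was a G-to-A or C-to-T change, while chromosome 5 as a whole held 226 pool-only sites of these types. The progenitor's other sites there included G1059063C at 0.329 (25 of 76 reads) and A1738008G at 0.36 (9 of 25 reads), neither listed in the pool. It also held G1637415T, which was listed in both libraries, at 0.2 in the pool and 0.348 in the progenitor. The pool carried A1608802T on 57 of 57 reads and G1057591T on 11 of 48 reads, both listed in the progenitor too, A1608802T there on only 2 reads. With shared sites between the 4, the stretch did not meet the description of a block given above. Shared sites cannot tell whether the alleles of the 4 sites were lost, and the pool's reads at the 4 sites themselves are unknown.

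Runs gave a second measure of blocks. A run was 3 or more consecutive progenitor sites of any type past both minimums, on 1 sequence, none of them listed in the pool. The 1255 progenitor-only sites of all types formed 133 runs with 601 sites (47.9% of them), and 126 of the 264 G-to-A or C-to-T sites (47.7%) lay in 83 of these runs. Of all progenitor sites past both minimums, 6.34% lay in runs. A run was called block-like where it spanned 10 kb or more, every site had ordinary depth, and the allele frequencies were all 0.9 or more or all from 0.3 to 0.7. None of the 133 runs met these limits, against 41 of the 352 runs of pool-only sites found the same way. Single sites differed in the same way. Ordinary depth with a frequency from 0.3 to 0.7 was found at 25.4% of the 264 sites and 16.4% of the 991 of other types. Among pool-only G-to-A or C-to-T sites it was 67.2%. With so few sites inside the limits, the absence of block-like runs cannot tell whether a block was lost. Of the 102 runs of 10 kb or more, 91 had sites of the pool list inside them. Such interruption was common in the pool-only runs too, where 254 of 307 of that span had sites of the progenitor list inside. Ordinary depth throughout was found in 5 of the 102, against 119 of the 307, and 4 of these 5 held a G-to-A or C-to-T site. In those 4 the allele frequency reached down to 0.188 to 0.256. A further 14 runs of 10 kb or more kept their allele frequencies within 0.3 to 0.7 and missed the limit on depth only, and 3 of these had no pool-listed site inside. On chromosome 8 the run from 36827572 to 36852013 spanned 24.4 kb with 3 sites, C36852009T and C36852013T among them, all at 25 reads and at 0.32 to 0.48. On chromosome 4 the run from 39194519 to 39211373 spanned 16.9 kb with 3 sites of other types, at 20 to 38 reads and 0.318 to 0.447. On scaffold_193 the run from 17693 to 29648 held 3 sites, 2 of them G-to-A or C-to-T, at 85 to 196 reads and 0.353 to 0.689. The run on chromosome 5 from 1002109 to 1592457 held 6 sites, 3 of them G-to-A or C-to-T, and missed the limits on both depth (24 to 76 reads) and frequency (0.25 to 0.429).

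**Figure D2:**
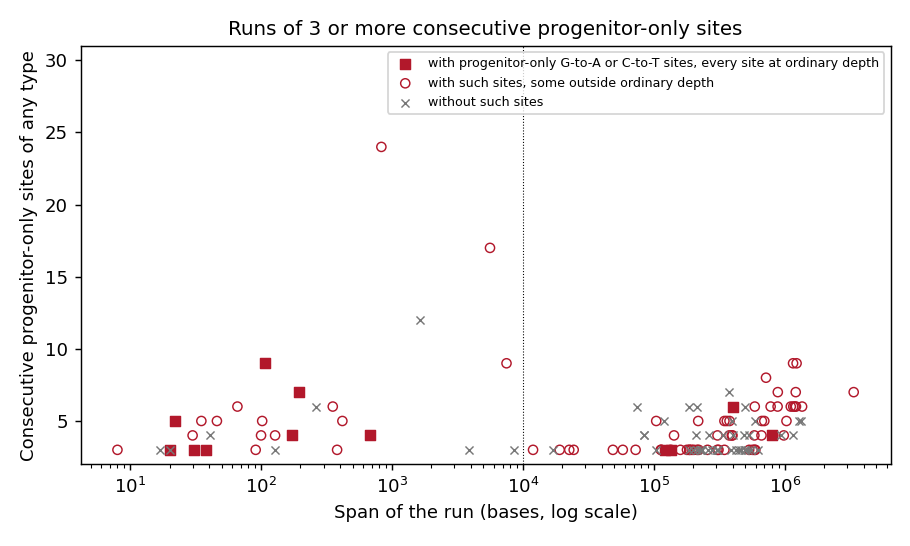
Number of consecutive progenitor-only sites of any type against the span of the run in bases (log axis), 1 symbol per run for the 133 runs. Squares mark runs with G-to-A or C-to-T sites in which every site had ordinary depth, circles other runs with such sites, and crosses runs without. The longest runs, with 24 and 17 sites, span under 10 kb, the dotted line.

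The richest run lay on the unplaced sequence scaffold_740. It held 24 progenitor-only sites within 830 bases, from 5386 to 6216, of which 8 were G-to-A or C-to-T, and no pool site. C5576T was carried by 19 of 19 reads, G5577A by 22 of 22, and C5386T and C5428T by 14 of 15 each. C5501T (0.667), G5515A (0.615), G5964A (0.698) and C5973T (0.658) were lower. Coverage over the run was 14 to 43 reads. The nearest sites listed in the pool were G2720A, 2666 bases before the run, with 42 reads, and G9804A, 3588 bases after it, also with 42 reads. At G2720A the progenitor had 79 reads, more than anywhere inside the run.

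A second dense run lay on chromosome 3 from 13029894 to 13035502 and held 17 sites, of which 3 were G-to-A. G13029894A was carried by 12 of 12 reads, G13033839A by 35 of 57 (0.614) and G13033864A by 33 of 66 (0.5). This run was no clean gap: it contained 5 sites of the pool list, and its coverage ran from 12 to 106 reads. On scaffold_190, 4 sites between 64035 and 64075 stood at 0.364 to 0.413 with 84 to 92 reads, within 133 bases of the shared site T64168A. This stood at 0.388 with a quality of 6.55 in the pool and at 0.496 with a quality of 86.5 in the progenitor.

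Sites fixed in the progenitor but unlisted in the pool were rare, and only 1 of them had ordinary depth. An allele frequency of 0.9 or more was reached by 9 of the 264 sites, against 14.0% of all progenitor sites past both minimums. C20426564T on chromosome 4 was carried by 46 of 47 reads (0.979, 0.889 to 0.996) with a quality of 129. Its nearest listed neighbour was shared: A20413818G, 12.7 kb before it, stood at 0.531 with 113 reads in the pool and at 0.449 with 136 reads in the progenitor. The next progenitor site, G20801458C, lay 375 kb after it, and C20426564T belonged to no run. The other fixed sites on chromosomes were G13029894A, G11183093A on chromosome 8 with 11 of 12 reads, and G13010185A on chromosome 7 with 6470 of 6503 reads.

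The deepest sites lay far above ordinary depth and beside shared sites. G13010185A had 6503 reads, and 23 bases from it T13010208C was shared at 0.981 (3896 reads) in the pool and 0.995 (6815 reads) in the progenitor. C14089T on scaffold_120 had 1170 of 1228 reads, with a shared site 18 bases away at 0.940 in the pool and 0.947 in the progenitor. C13761053T on chromosome 3 had 517 of 811 reads, G6965976A on chromosome 2 had 123 of 637, and C30271979T on chromosome 7 had 368 of 624. Each of these 5 sites had a pool-listed site within 43 bases, and their qualities ran from 27.5 to 80.5.

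The chromosomes held the sites about as they held all progenitor sites, apart from chromosome 3. Of the 264 sites 235 lay on the 8 chromosomes and 29 on unplaced sequences. Chromosome 2 held 42 (15.9%, 12 to 20.8%), chromosome 4 held 39 (14.8%), and chromosomes 7 and 8 held 32 each (12.1%). Chromosome 3 held 29, or 11% (7.76 to 15.3%), against 5.08% of all progenitor sites past both minimums. It held 11.1% of the progenitor-only sites of other types too. Chromosome 6 held 22, chromosome 1 held 20 and chromosome 5 held 19. Per Mb of listed chromosome the counts were 1.15 on chromosome 2, 0.954 on chromosome 3 and 0.633 to 0.74 on the other 6. The 5 Mb window with the most sites, 20, ran from 10000001 to 15000000 on chromosome 2, where they were 2.57% of 777 progenitor sites, against 2.78% over all sequences. Higher shares were found in windows with few progenitor sites, such as 7 of 25 (28%) from 46000001 to 51000000 on chromosome 4, and 3 of 12 (25%) from 6000001 to 11000000 on chromosome 6. The chromosome medians of allele frequency ran from 0.333 to 0.385, and the unplaced sites had a median of 0.516.

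**Figure D3:**
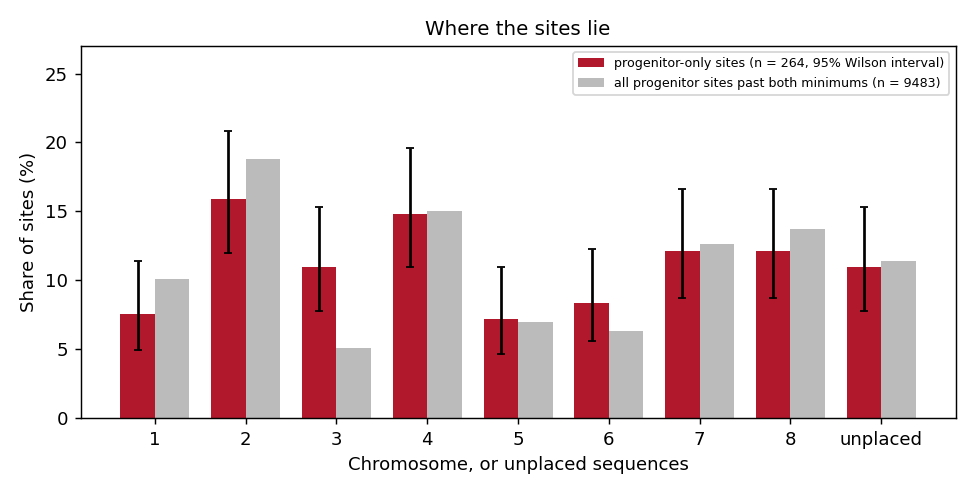
Share of sites (%) on each chromosome and on unplaced sequences for the 264 progenitor-only sites, with 95% Wilson intervals, and for the 9483 progenitor sites past both minimums. On chromosome 3 the bars stand at 11% and 5.08%, and on the other chromosomes the interval of the first bar takes in the second.

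Strand class showed no chromosome bias like that of the pool-only sites. The 264 sites were 134 G-to-A and 130 C-to-T, a G-to-A share of 50.8% (44.8 to 56.7%), and on every chromosome the 95% interval of the share held 50%. The pool-only sites had G-to-A shares of 93.8% on chromosome 3 and 93.7% on chromosome 8, and of 20.1% on chromosome 1. On chromosome 8 the progenitor-only sites had 17 G-to-A of 32, or 53.1% (36.4 to 69.1%). Shared near-fixed sites with up to 100 reads, variants fixed in the progenitor and still present in the pool, had 12 G-to-A of 315 on chromosome 8 (3.81%) and 172 of 221 on chromosome 2 (77.8%). On chromosome 2 the progenitor-only share was 18 of 42, or 42.9% (29.1 to 57.8%), which lay below both the shared share and the pool-only share of 69.8%. With 19 to 42 sites per chromosome the intervals are wide.

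**Figure D4:**
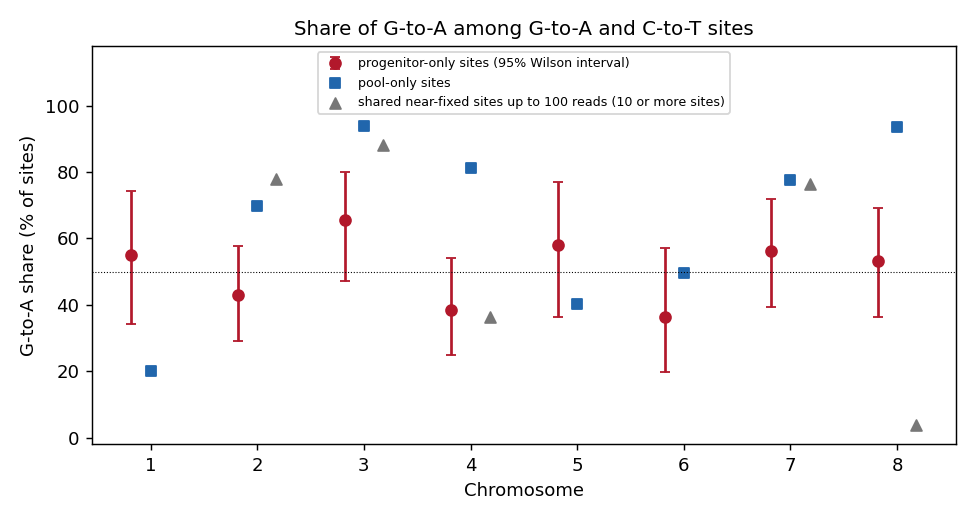
Share of G-to-A among G-to-A or C-to-T sites (%) on each chromosome for progenitor-only sites with 95% Wilson intervals, pool-only sites, and shared near-fixed sites of up to 100 reads where there were 10 or more. The progenitor-only intervals take in 50% on all 8 chromosomes, while the pool-only shares run from 20.1% to 93.8%.

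On chromosome 8 between 35 and 43 Mb, a region singled out from earlier results of these data, none of the G-to-A or C-to-T sites was near fixation. There the progenitor had 148 sites past both minimums, of which 32 were not listed in the pool and 6 were G-to-A or C-to-T. These were G36538760A with 36 of 75 reads, C36852009T with 11 of 25, C36852013T with 8 of 25, G37560765A with 11 of 25, C40641565T with 9 of 20 and G41249122A with 9 of 16. Their allele frequencies ran from 0.32 to 0.562, and 5 of the 6 lay below ordinary depth. C36852009T and C36852013T, 4 bases apart, belonged to the 24.4 kb run described above, which no pool-listed site interrupted. Pool-listed sites were sparse there, the nearest to C36852013T being 53906 bases away, farther than the run is long. The 6 G-to-A or C-to-T sites were 4.05% of the 148 sites, against 2.46% of all 1300 progenitor sites on chromosome 8. Over the whole of chromosome 8, 32 G-to-A or C-to-T sites and 134 sites of other types were not listed in the pool.

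Because a site with the reference base has no entry, the pool's depth was read from the surroundings, and only for sites with a shared site within 1 kb. Such sites had a median coverage of their own of 97 reads, against 47 over all 264. At the rest, the pool's depth was not estimated. A shared site lay within 1 kb of 115 of the 264, and a shared site nearest to several of them was counted once for each. At those shared sites the median coverage was 103 reads in the pool, against 114 in the progenitor. The pool had at least 10 reads at 113 of the 115. The variant quality there had a median of 27.4 in the pool, against 74.5 in the progenitor, and 53 of the 115 (46.1%) stood below a quality of 25 in the pool, against 20 (17.4%) in the progenitor. The median allele frequency was 0.388 in the pool, against 0.48 in the progenitor. It was lower in the pool at 94 of the 115. Over all 8048 shared sites with another shared site that near, the neighbour had a median allele frequency of 0.485 in the pool, against 0.483 in the progenitor. It was lower in the pool at 3968 of the 8048, and the pool had at least 10 reads at 8009 of them. There 10.8% stood below a quality of 25 in the pool, against 11% in the progenitor. The pattern was not particular to G-to-A or C-to-T. Beside 317 progenitor-only sites of other types, the allele frequency was lower in the pool at 247. The median quality beside them was 36.5 in the pool, against 78.7 in the progenitor. The 155 pool-only sites with a shared site within 1 kb gave the mirror image, with a median quality of 90.5 in the pool and 28.5 in the progenitor. The part of the pool's lower quality in the absence of the 264 sites from its list was not tested.

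**Figure D5:**
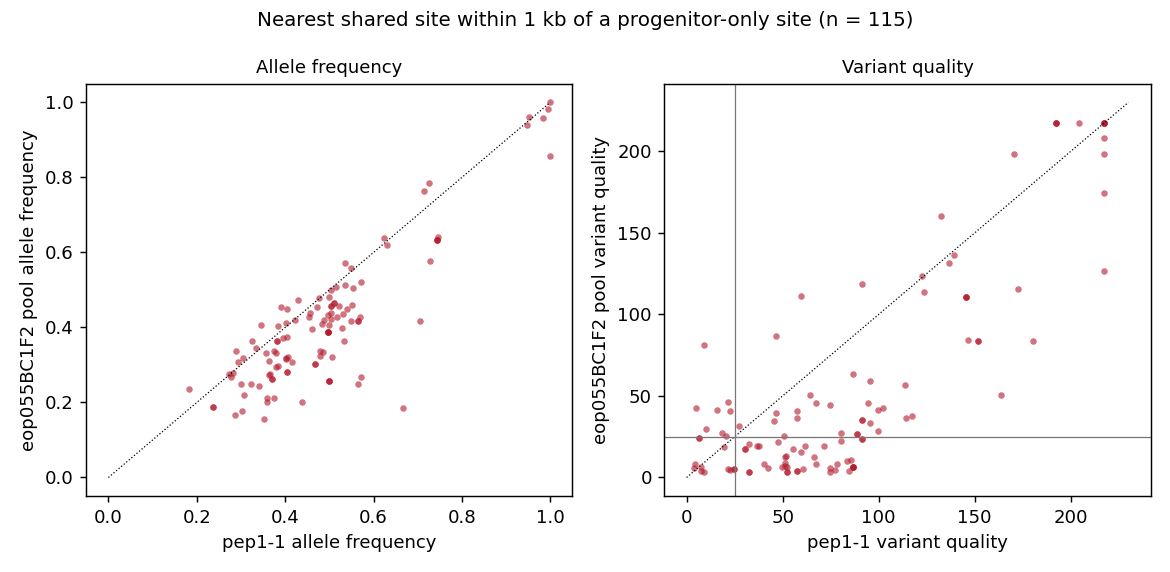
Allele frequency on the left and variant quality on the right at the nearest shared site within 1 kb of 115 progenitor-only sites, with the eop055BC1F2 pool on the vertical and pep1-1 on the horizontal axis, 1 point per progenitor-only site. The dotted line is equality and the grey lines mark a quality of 25. The allele frequency lies below the line for 94 of the 115.

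Shared sites near the progenitor-only ones were also tested one by one, which the rule had not used. By Fisher's exact test on reads, adjusted by Benjamini-Hochberg over all 9753 shared sites, the libraries differed at 121 of the 2157 shared sites within 10 kb of 1 of the 264, or 5.61% (4.72 to 6.66%), against 3.21% of all shared sites. Of these, 113 were lower and 8 higher in the pool, against 2.60% lower and 0.605% higher over all shared sites. Most of these were very deep. Nearest to G13010185A on chromosome 7, 76 of 85 shared sites differed, and these 85 had a median pool coverage of 4183 reads. Nearest to G18637327A on chromosome 6, 22 of 25 differed, and these 25 had a median of 3249 reads. Without the neighbours of the first, the share was 2.17%, and without those of both it was 1.12%. Among shared sites with up to 200 reads in both libraries, 21 of the 1836 within 10 kb differed (1.14%), against 84 of the 6602 farther away (1.27%). With the p-values adjusted over only the 8438 sites of that depth, 0.381% of those within 10 kb differed, against 0.569% of all 8438. An example of a wide difference was G11330914A on chromosome 4, 453 bases from C11331367T. G11330914A stood at 0.397 in the pool (121 reads) and 0.812 in the progenitor (202 reads; Fisher's exact test, adjusted p = 1.64e-11). This example too lay near a very deep site. The shared site T11330743C, 624 bases from C11331367T on the same side, had a pool coverage of 2377 and a progenitor coverage of 5325.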

How the data were processed

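The tools named per the submitters' processing notes are Bowtie2, SAMtools and DESeq, without version, role or order. Filters, variant caller and build: not given in the sources used here. The sheet names of the lists carry different version tags of unstated meaning, so whether both lists were filtered alike is unknown, which limits what a site's absence from the pool list means. The genotype in a sheet's name tied each deposited list to its library. The deposited allele frequency is a fraction of reads. The deposited column headed reads held no whole numbers and reached 225.009, so it was taken for the score of variant quality. The other deposited column, headed quality, was read as the count of alternative reads. Coverage was that count over the allele frequency, rounded, and gave back the frequency within 5e-05 at 14923 of 14923 pool and 14029 of 14029 progenitor sites. All columns of sample values that were used could be matched to a sample.

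The sites, lists and limits were chosen with earlier results of these data known. Named sites were those at 0.9 or more, those in the 3 richest runs, the 5 deepest, the 10 of highest quality at ordinary depth and intermediate frequency, those on chromosome 8 from 35 to 43 Mb, and those at the thresholds. Others were named after their values were seen. Intervals are Wilson 95% and cover counting error only. Sites got no test of their own, since their values chose them, and only shared sites were tested (Fisher's exact test, two-sided, Benjamini-Hochberg at 0.05), which compares these libraries, not genotypes at large. The test was checked on simulated reads. Alternatives changed the quality and coverage limits, the match to the pool, and the definitions of near-fixed, ordinary depth, runs and neighbours. Python 3.11.15, numpy 2.4.6, pandas 2.3.3, scipy 1.17.1 and matplotlib 3.10.9 were used.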

Additional observations from a re-analysis of the deposited data

How the results depend on the processing

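Of 93 values under alternatives, 2 of them chosen after seeing the data, 65 stayed near the main value and 28 moved. Reversals were not scored. No quality minimum gave 909 sites (264 in the main setting), a median allele frequency of 0.333, 32 near-fixed sites, 143 at ordinary depth and intermediate frequency, and 602 in runs. A quality minimum of 35 left 72 sites in runs (126 in the main setting). A quality minimum of 100 left 26 sites, with a median allele frequency of 0.363, a median coverage of 62.5 reads, 1 near-fixed site, a G-to-A share of 61.5%, 15 sites at ordinary depth and intermediate frequency, and 4 in runs. Near-fixed sites numbered 14 with no coverage minimum, 4 on the 8 chromosomes only, 4 at a coverage minimum of 20 and 3 at 30. The median coverage was 62 reads at a minimum of 20, 84 at a minimum of 30 and 30.5 at a maximum of 100. A coverage minimum of 30 left 171 sites and 66 in runs. An allele frequency of 0.4 to 0.6 left 30 intermediate sites, against 67. Runs of 5 or more held 64 sites, and runs over G-to-A or C-to-T sites alone held 73. The share of shared neighbours that differed moved to 0.381%, 2.17% and 1.12% as given above. The chromosome with the most sites was chromosome 2 or chromosome 4, with 15.1 to 19.9%. The causes of these moves were not tested. Depth limits all single sites: the 95% interval reached a median of 0.123 to each side, and at unlisted positions the pool's reads are unknown. No paired analysis was possible because there was a single library per group, so no replicate could be left out either.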
